A study of Rattus norvegicus with 15 samples.

Results

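RNA from the femurs of ovariectomised rats that received a Psoralea corylifolia extract (group P) was set against RNA from the femurs of sham-operated rats (group Sham), to see which genes still differed from sham under the extract. The comparison used 6 of the 15 libraries of the series, P 1 to P 3 and Sham 1 to Sham 3, chosen by their titles. All rats were female, of the SD (Sprague-Dawley) strain and 8 weeks old at the start. P rats lost both ovaries, recovered for 6 weeks and were then given the extract by gavage at 2.4 g per kg per day for 8 weeks. Sham rats kept their ovaries, had a like amount of fat removed and were given saline. The 3 libraries of ovariectomised rats given saline (OVX) are set beside both groups as the state without the extract. Rats of every group had received penicillin and erythromycin after surgery. The labels name the tissue as femur and do not say which segment was taken, whether marrow, cartilage and muscle were kept, what the extract held, or whether each library came from its own rat. The p-values therefore measure the spread between these libraries, which may in part be technical.

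A femur joins several tissues that share no single function. Its shaft and trabeculae are made by osteoblasts, maintained by osteocytes and resorbed by osteoclasts, and its ends are capped by cartilage. The cavity holds marrow, where red cells, granulocytes, platelets and B cells form from dividing precursors among fat cells and stroma. Loss of estrogen is known to raise bone resorption and, in rodents, to alter blood formation in the marrow. Psoralea fruit is known for coumarins and for meroterpenes and flavonoids with activity at estrogen receptors.

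The 6 libraries did not all resemble their group. Sost, the Wnt inhibitor made by osteocytes, had an FPKM (fragments scaled by gene length and library size) of 0.280, 0.432 and 313 in Sham 1 to Sham 3 and 31.3, 1.66 and 317 in P 1 to P 3. Sham 1, Sham 2 and P 2 were thus near 0 for a defining osteocyte gene, whereas Sham 3, P 1 and P 3 were not. Phex, an endopeptidase of osteocytes, was likewise below 1 in Sham 1, Sham 2 and P 2, with 0.0667, 0.210 and 9.25 in Sham and 5.67, 0.138 and 25.4 in P. The cartilage proteoglycan Acan had 559.7, 259 and 200.1 in Sham and 0.867, 141 and 1.60 in P, so P 1 and P 3 held almost none of it and P 2 fell close to the sham range. Skeletal muscle actin, Acta1, was highest in P 2, with 18.9, 695 and 0.968 in P against 132, 75.6 and 7.53 in Sham, and mitochondrial genes took 35.9% of the FPKM of P 2 against 17.6% in P 1 and 11.2% in P 3. Across 14392 genes, log2(FPKM + 1) of P 2 had a Pearson correlation of 0.900 with Sham 1 but 0.850 and 0.836 with P 1 and P 3, and Sham 3 had one of 0.938 with Sham 2, 0.904 with P 3 and 0.894 with Sham 1. These are descriptions across genes, which are not independent and share depth and tissue makeup within a library. Library totals inferred from the steps of the values were 34.4 to 51.9 M read ends in these 6 libraries, and 40.7 to 42.8 M in OVX. The part of the tissue makeup of single libraries in the results below was not tested, and each leading count is given with and without the libraries that stood apart.

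**Figure D1:**
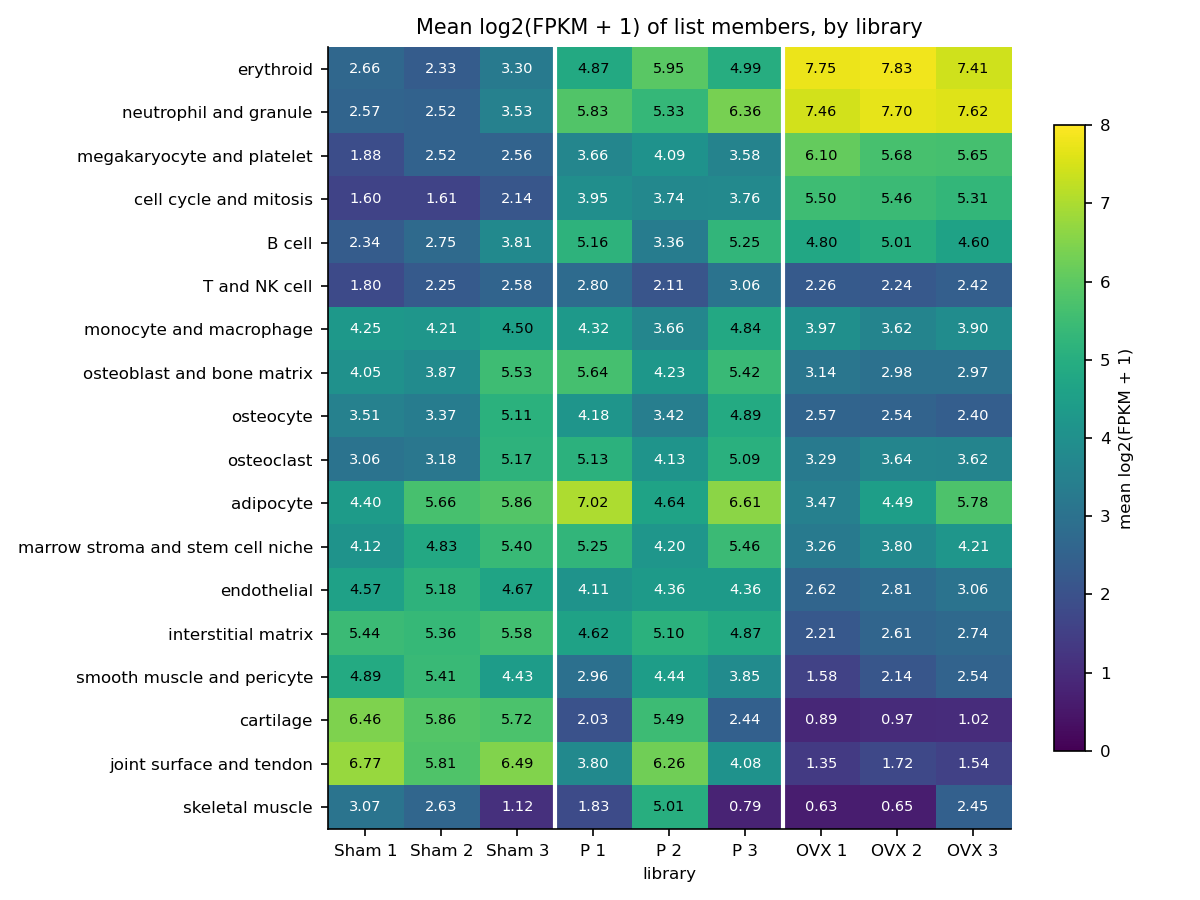
Mean log2(FPKM + 1) of the tested members of 18 tissue and cell lists (rows) in each of the 9 libraries of Sham, P and OVX (columns), with the value printed in each cell. The erythroid list had 2.66, 2.33 and 3.30 in Sham, 4.87, 5.95 and 4.99 in P and 7.75, 7.83 and 7.41 in OVX, and the cartilage list of P 2, at 5.49, stood with the Sham libraries and not with P 1 and P 3.

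Of the 14430 genes whose FPKM averaged 1 or more over the 6 libraries, 426 were higher in P than in Sham (2.95% of those tested) and 44 were lower (0.305%), together 3.26%, by limma on log2(FPKM + 1) with Benjamini-Hochberg adjustment at 0.05. The 4 lists with the most calls were those of red cell, neutrophil and platelet precursors and of cell division, and every call in them was higher in P. Fold changes are on the log2(FPKM + 1) scale, which understates the change of genes with low values. The median fold change of all genes tested was 0.07, and 2919 genes had an unadjusted p under 0.05. The same test called 57.4% of genes between OVX and Sham (27.3% higher and 30.1% lower) and 33.9% between P and OVX (19.9% higher and 14.0% lower). These 3 comparisons share libraries, so their values stand side by side and their overlap is not a result. The count of 470 rested on all 6 libraries: it was 448 without Sham 3, 68 without Sham 1, 68 without Sham 2, 2 without P 1, 102 without P 3 and 1642 without P 2. Sham 3 stood apart from its group in bone genes, and P 2 from its group in bone and cartilage genes. With both left out together there were 3576 calls, of which 2436 were higher. Of the 470 genes, all had the same sign in each of these fits, and 466 passed without Sham 3 and P 2. Those libraries were picked, after the data were seen, for differing from their groups. The fit without them is thus not a further test of these genes.

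**Figure D2:**
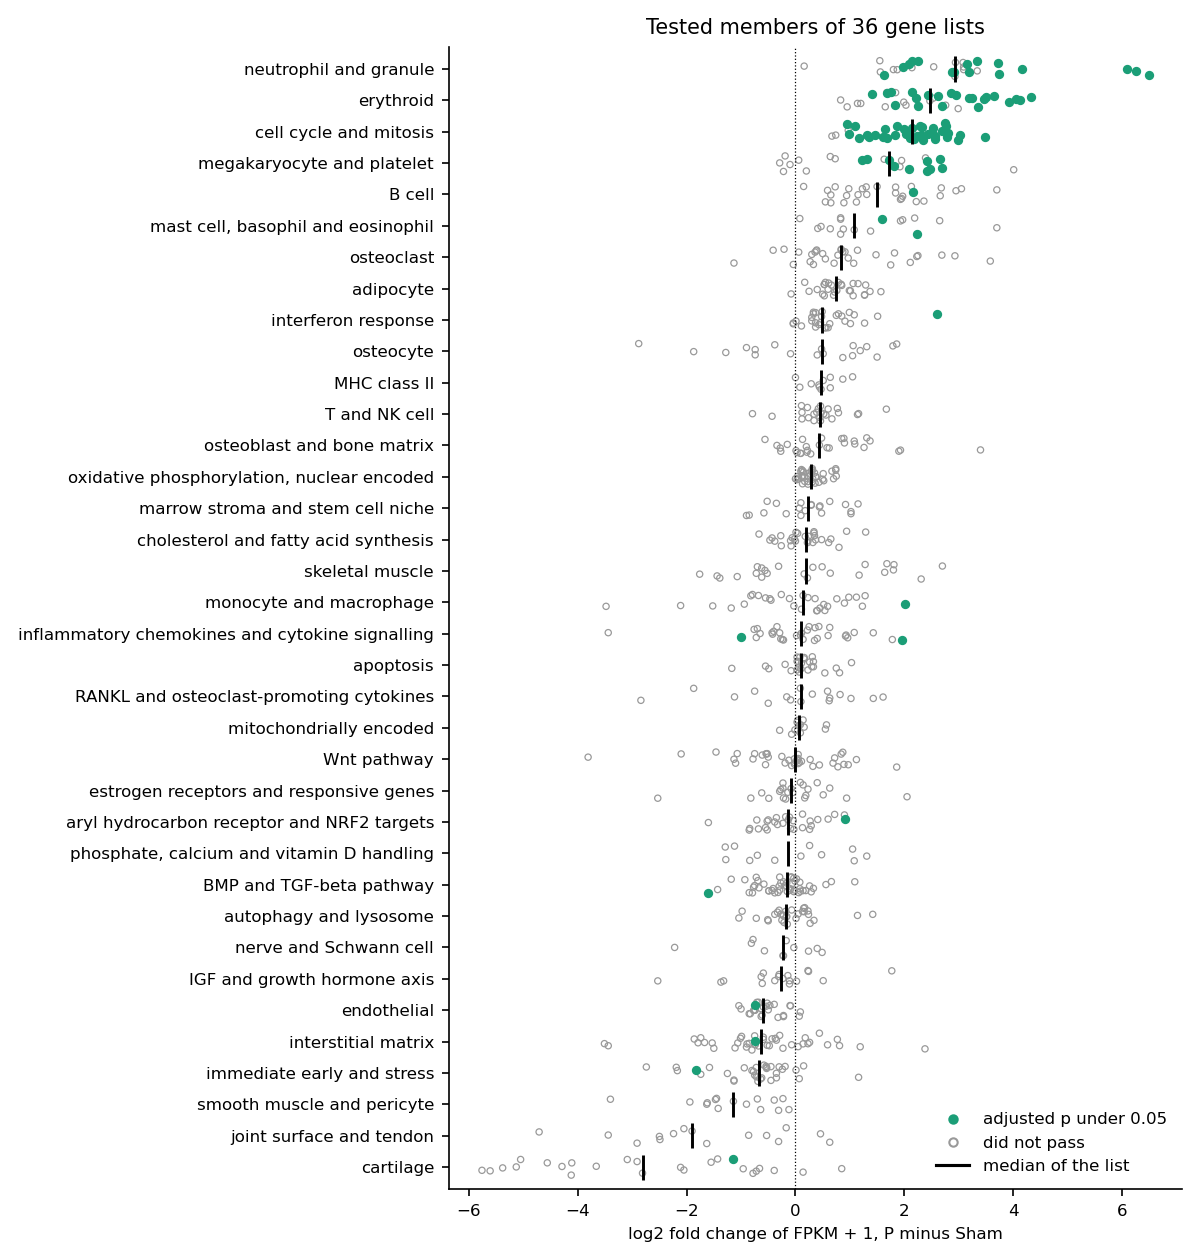
Log2 fold change of FPKM + 1 in P minus Sham (horizontal axis) for each tested member of 36 gene lists (rows, ordered by the median, black bar). Filled points passed at an adjusted p under 0.05, and open points did not. Filled points cluster in the neutrophil, erythroid, cell cycle and platelet lists, with medians of 2.93, 2.47, 2.15 and 1.72, while the cartilage list, with a median of -2.81, had 1.

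Neutrophil granule genes stood farthest from sham. RatNP-3b (ENSRNOG00000038135), an antimicrobial defensin of neutrophil granules, had an FPKM of 4.91, 2.40 and 14.4 in Sham 1 to Sham 3 and 569.9, 680.3 and 580.5 in P 1 to P 3. All 3 P libraries were far above the highest Sham library and close to each other, with a log2 fold change of 6.49 ± 0.52 (SE, adjusted p = 0.00672, limma). OVX libraries had 2713, 2489 and 2493, above every P library. Np4 (ENSRNOG00000069755), a related defensin, had 4.5, 5.34 and 10.9 in Sham, 596, 242 and 919.9 in P and 3228, 2833 and 2664 in OVX, with P 2 the lowest of the P libraries. Its fold change from sham was 6.10 ± 0.54 (adjusted p = 0.0073). Defa5 had a fold change of 6.25 ± 0.44 and the pseudogene Defa5-ps2 one of 5.08 ± 0.21, the smallest p of all genes with a symbol. Defa11 was listed at 0 in all 3 Sham libraries and at 13.3, 7.41 and 29.2 in P, so no fold is given. In bulk RNA, more cells of a type and more RNA per cell cannot be told apart.

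The defensin genes include near-identical copies that lie close together on chromosome 16, and reads of such copies can be split between them, so the value of a single copy is uncertain. Their promoters are shown because the members that led the comparison share most of their bases there. The 250 bases before the start of each gene come from RefSeq on build GRCr8, which is not the build of the deposited values. Capitals mark matches to TTNNGNAA on either strand, a loose form of the site bound by C/EBP factors, which are known to drive granule genes.
RatNP-3b (chr16:77248978-77249227, strand -): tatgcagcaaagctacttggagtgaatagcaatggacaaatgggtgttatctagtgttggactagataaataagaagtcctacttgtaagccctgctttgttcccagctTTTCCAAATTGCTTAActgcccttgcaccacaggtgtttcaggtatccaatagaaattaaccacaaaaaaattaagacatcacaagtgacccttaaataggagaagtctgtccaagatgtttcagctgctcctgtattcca
Np4 (chr16:77199643-77199892, strand -): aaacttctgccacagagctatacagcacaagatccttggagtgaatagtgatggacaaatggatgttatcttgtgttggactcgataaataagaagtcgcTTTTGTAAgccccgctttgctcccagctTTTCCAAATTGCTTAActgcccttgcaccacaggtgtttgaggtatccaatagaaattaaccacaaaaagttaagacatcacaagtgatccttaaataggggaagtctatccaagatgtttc
Defa11 (chr16:77238042-77238291, strand -): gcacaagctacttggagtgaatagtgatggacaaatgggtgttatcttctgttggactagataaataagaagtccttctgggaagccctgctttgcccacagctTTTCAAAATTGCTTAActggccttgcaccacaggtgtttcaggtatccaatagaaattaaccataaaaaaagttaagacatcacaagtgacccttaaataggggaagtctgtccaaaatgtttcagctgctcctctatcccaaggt
Aligned end to end, RatNP-3b and Np4 were identical at 93.0% of 230 aligned bases, RatNP-3b and Defa11 at 93.1% of 245, and Np4 and Defa11 at 92.4% of 225. RatNP-3b and Defa11 each held 2 matches and Np4 held 3. Of the 35 genes of the neutrophil list, 25 had an entry in the promoter table, and 15 of these 25 held a match, against 37.2% of 33465 promoters of the same length. Near-identical copies in the list count separately here, although their promoters are not independent. A match is a run of letters and was not tested as a binding site.

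Other granule genes followed the defensins. Camp, the cathelicidin precursor, had 26.2, 8.56 and 47.2 in Sham and 287, 489 and 503 in P, without overlap (4.16 ± 0.60, adjusted p = 0.021). S100a8 (ENSRNOG00000011557), a subunit of calprotectin in neutrophil cytosol, had 136, 120.4 and 265 in Sham, 2314, 1505 and 3025 in P and 9564, 9576 and 11210 in OVX. The difference between P and Sham was 3.74 ± 0.41 (adjusted p = 0.0103), and P 2 was the lowest P library, as for Np4. Mcemp1 (2.91 ± 0.16) and Ms4a3 (3.33 ± 0.25), membrane proteins of myeloid cells and of granulocyte precursors, were called with small errors. Of 29 tested neutrophil genes, 16 were higher, against 2.95% of all genes. None were lower and 13 did not pass, and the list's median fold change was 2.93. Mpo, the myeloperoxidase of primary granules, was among those that did not pass, with 2.79, 8.84 and 23.1 in Sham and 95.3, 67.7 and 139.5 in P (3.34 ± 0.67, adjusted p = 0.0571). It was chosen for the text after its values were seen. The Sham and P libraries did not overlap for 25 of the 29, with P higher, against 14.6% of all genes tested. The 4 that overlapped were Mmp9, Gfi1, Fcnb and Hp. Between OVX and Sham the list's median was 4.68 with 28 of 30 higher, and between P and OVX it was -1.98 with 24 of 30 lower.

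**Figure D3:**
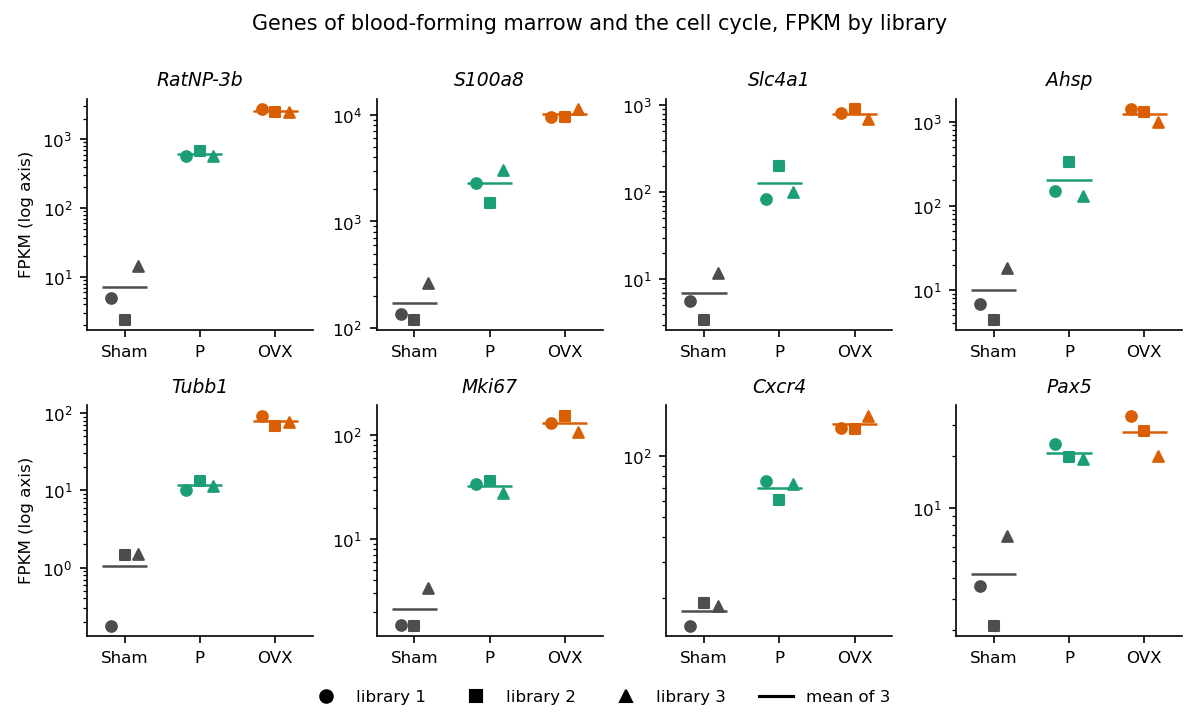
FPKM on a log axis of 8 genes of granulocytes, red cells, platelets, dividing cells and B cells in the 3 libraries (circle, square and triangle for libraries 1, 2 and 3) of Sham, P and OVX, with a bar at the mean. The P libraries lie above all Sham libraries in each panel, and below all OVX libraries in each panel but that of Pax5, where P at 23.2, 19.6 and 19.1 overlaps OVX at 34.0, 27.9 and 19.8.

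Genes of red cell precursors were also higher than in sham. Slc4a1 (ENSRNOG00000020951), the band 3 anion exchanger of the red cell membrane, had 5.66, 3.43 and 11.7 in Sham and 83.5, 201 and 101 in P. P 2 was the highest P library, the opposite of its place for Np4 and S100a8, and the fold change was 4.06 ± 0.48 (adjusted p = 0.0118). OVX stood higher still, at 822, 892 and 686. Ahsp, the chaperone of alpha globin, had 6.85, 4.43 and 18.3 in Sham and 149, 332 and 131 in P (4.32 ± 0.56, adjusted p = 0.0151). Car1, a carbonic anhydrase of red cells, and Hemgn, a nuclear protein of blood precursors, had fold changes of 4.10 ± 0.70 and 3.92 ± 0.57. The erythroid transcription factor Gata1 had 0.827, 0.804 and 1.75 in Sham and 11.5, 21.9 and 11.0 in P, with a fold change of 2.85 ± 0.31. Rhag, the Rh-associated glycoprotein, differed by 3.65 ± 0.41, and Ermap, an adhesion protein of red cells, by 3.46 ± 0.33.

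Of 35 tested erythroid genes, 22 were higher, against 2.95% of all genes, and 13 did not pass. In all 35 the 3 P libraries lay above the 3 Sham libraries, against 14.6% of all genes. The list's median was 2.47, against 0.07 for all genes. Hba-a1, an alpha globin, was among the 13: it had 709.6, 307 and 1946 in Sham, 2503, 7340 and 3921 in P and 33260, 30120 and 24890 in OVX, and its difference from sham of 2.47 ± 0.77 had an adjusted p of 0.154. Sham 3, at the top of its group, lay close under P 1. Globin genes have near-identical copies, and the value of 1 copy is uncertain. Set beside OVX, all 35 erythroid genes were lower in P (median -2.49), and in OVX all 35 were higher than in Sham (median 5.10). On this log2 scale the P median thus lay about midway between the groups that bound it.

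Promoters of Trim58 and Sptb are shown because they are the 2 called erythroid genes of smallest p that had a table entry with the GATA factor motif AGATAA on either strand (capitals). Trim58 codes for a ubiquitin ligase of maturing red cells (2.7 ± 0.34, adjusted p = 0.0146), and Sptb for beta spectrin (2.14 ± 0.28, adjusted p = 0.015). Both sequences are from RefSeq on build GRCr8.
Trim58 (chr10:43523154-43523403, strand +): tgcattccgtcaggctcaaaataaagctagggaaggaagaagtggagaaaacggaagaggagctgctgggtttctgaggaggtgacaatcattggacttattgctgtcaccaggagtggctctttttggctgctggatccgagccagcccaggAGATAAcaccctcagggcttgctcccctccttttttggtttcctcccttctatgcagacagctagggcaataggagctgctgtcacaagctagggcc
Sptb (chr6:101170279-101170528, strand -): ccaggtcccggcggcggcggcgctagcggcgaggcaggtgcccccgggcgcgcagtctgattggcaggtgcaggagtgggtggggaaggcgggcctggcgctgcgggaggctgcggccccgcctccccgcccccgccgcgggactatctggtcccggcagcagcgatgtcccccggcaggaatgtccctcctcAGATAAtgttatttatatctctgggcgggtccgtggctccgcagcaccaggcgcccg
Trim58 had 0.18, 0.120 and 0.879 in Sham and 5.53, 12.4 and 6.80 in P, and Sptb had 3.61, 2.97 and 3.52 in Sham and 12.7, 27.5 and 17.2 in P. Entries were found for 28 of the 37 erythroid genes, with 32 promoters, of which 11 held the motif, against 10.3% of all promoters.

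Platelet precursors showed the same direction with smaller differences. Tubb1, the beta tubulin of platelets, had 0.177, 1.45 and 1.52 in Sham and 10.2, 13.4 and 11.5 in P, with P libraries close together (2.7 ± 0.33, adjusted p = 0.0126). Nfe2, a transcription factor of platelet release, had 2.92, 3.68 and 5.78 in Sham and 21.8, 36.5 and 24.0 in P (2.47 ± 0.28). Coagulation factor F5 had 3.47, 3.95 and 2.68 in Sham and 9.49, 9.29 and 10.6 in P (1.31 ± 0.16), and the granule-secretion GTPase Rab27b had 0.891, 0.950 and 0.885 in Sham and 3.87, 3.16 and 3.43 in P (1.23 ± 0.16). The list as a whole was mixed. Of 23 tested members, 10 were higher, against 2.95% of all genes, and 13 did not pass. Negative fold changes were found for 4 members (Vwf, Thbs1, Ltbp1 and Selp, which endothelial or other cells also make). The median was 1.72, against 4.16 for OVX minus Sham and -2.35 for P minus OVX.

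Genes of cell division formed the list with the highest share of calls. Mki67 (ENSRNOG00000028137), the chromosome coat protein used as a marker of cycling cells, had 1.5, 1.46 and 3.38 in Sham, 34.2, 36.1 and 27.6 in P and 131, 155 and 108 in OVX. The 3 groups did not overlap, and P exceeded Sham by 3.48 ± 0.26 (adjusted p = 0.00623). The mitotic kinase Plk1 had 2.22, 1.71 and 2.22 in Sham and 14.5, 14.1 and 13.6 in P (2.31 ± 0.14, adjusted p = 0.00586), and Prc1, which bundles the central spindle, had 3.44, 3.31 and 3.13 in Sham and 18.1, 21.1 and 16.5 in P (2.18 ± 0.14, adjusted p = 0.00586). Cyclin A2, Ccna2, differed by 2.56 ± 0.20 (adjusted p = 0.00623). P 2 did not stand apart from P 1 and P 3 here: the mean level of the list was 3.95, 3.74 and 3.76 in P 1 to P 3 and 1.60, 1.61 and 2.14 in Sham 1 to Sham 3. Of 39 tested genes, 36 were higher, against 2.95% of all genes. The 3 P libraries lay above the 3 Sham libraries in all 39, against 14.6% of all genes. Gins2, E2f1 and Ccne2, all of the entry into DNA replication, were the 3 that did not pass, with fold changes of 0.67, 0.97 and 0.74. The list's median was 2.15. It was 3.86 in OVX minus Sham, with all 39 higher, and -1.64 in P minus OVX, with all 39 lower.

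Promoters of Mki67 and Top2a, the DNA topoisomerase of dividing cells, are shown as examples of a list whose members moved together. Capitals mark TTTGAA, the core of the cell cycle homology region, and CCAAT, bound by NF-Y, on either strand. Sequences are from RefSeq on build GRCr8.
Mki67 (chr1:199952594-199952843, strand -): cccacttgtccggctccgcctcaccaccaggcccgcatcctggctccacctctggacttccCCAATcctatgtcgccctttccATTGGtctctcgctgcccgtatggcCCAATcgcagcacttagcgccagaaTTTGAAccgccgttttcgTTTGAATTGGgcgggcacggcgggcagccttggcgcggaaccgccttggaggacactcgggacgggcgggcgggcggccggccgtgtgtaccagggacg
Top2a (chr10:84473094-84473343, strand -): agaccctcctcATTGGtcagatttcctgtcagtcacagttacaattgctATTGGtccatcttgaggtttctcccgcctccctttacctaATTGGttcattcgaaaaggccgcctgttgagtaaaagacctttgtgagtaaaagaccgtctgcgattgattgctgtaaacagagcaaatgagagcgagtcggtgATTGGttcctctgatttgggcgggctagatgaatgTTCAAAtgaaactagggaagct
Mki67 held 2 matches to TTTGAA and 4 to CCAAT, of which 1 of each overlap by a base, and Top2a held 1 and 4. Entries were found for 30 of 40 cell cycle genes, of which 9 held TTTGAA (16.2% of all promoters did), 23 held CCAAT (34.0%) and 8 held both (5.9%). Top2a itself had 1.85, 1.96 and 4.40 in Sham and 36.8, 18.6 and 31.9 in P (3.02 ± 0.35, adjusted p = 0.0109), with P 2 the lowest P library.

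The calls in these 4 lists depended on which libraries entered. Without P 1, in which case P 2 and P 3 alone stood for the group, the calls were 0 in the erythroid, 1 in the neutrophil, 0 in the platelet and 0 in the cell cycle list, although the medians were 2.82, 3.01, 1.72 and 2.10. Without P 2 they were 27, 23, 13 and 38. Without P 3 they were 2, 7, 1 and 13. Without Sham 1 they were 1, 5, 1 and 11, and without Sham 2 they were 1, 7, 0 and 11. Without Sham 3 they were 21, 17, 8 and 36. With Sham 3 and P 2 left out together, 35 of 35, 26 of 29, 14 of 23 and 38 of 39 were higher. In the same fit 2436 of all 14430 genes were higher.

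B cell genes had 1 call among 29 tested, near the 2.95% of all genes called higher. Pax5 (ENSRNOG00000024729), the transcription factor that commits cells to the B lineage, had 3.58, 2.12 and 6.90 in Sham and 23.2, 19.6 and 19.1 in P (2.16 ± 0.34, adjusted p = 0.0259). Igll1, part of the surrogate light chain of B precursors, had 0.172, 0.580 and 2.47 in Sham and 49.96, 5.54 and 41.5 in P. P 1 and P 3 stood far above Sham and P 2 only about 2-fold above Sham 3, and the difference of 3.70 ± 0.85 did not pass (adjusted p = 0.0832). Dntt, the polymerase that adds bases at rearranging antigen receptor genes, had the same order, with 0.259, 0.967 and 2.7 in Sham and 29.5, 4.96 and 27.6 in P (adjusted p = 0.0889). Vpreb1, the other part of the surrogate light chain, had 14.7, 3.54 and 14.3 in P (adjusted p = 0.0823). All 29 tested B cell genes had positive fold changes, with a median of 1.5, and in 8 every P library lay above every Sham library, against 14.6% of all genes. The list's mean level was 5.16, 3.36 and 5.25 in P 1 to P 3 and 2.34, 2.75 and 3.81 in Sham 1 to Sham 3, so P 2 lay below Sham 3. Without P 2, 14 passed, and without Sham 3 and P 2 together 22 did, each higher in P. Those fits called 1058 and 2436 of all 14430 genes higher. Between P and OVX none of 29 passed (median -0.32), whereas 21 of 29 were higher in OVX than in Sham (median 2.01).

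Mast cell and basophil genes gave 2 calls among 17, against 2.95% of all genes called higher. Monocyte and macrophage genes gave 1 among 31, near that share. Ms4a2, the beta chain of the IgE receptor, had 1.4, 0.783 and 1.59 in Sham and 13.1, 6.25 and 10.1 in P (2.23 ± 0.29, adjusted p = 0.0154). Cma1, mast cell chymase, had 3.45, 2.06 and 2.49 in Sham and 10.9, 11.2 and 7.86 in P (1.59 ± 0.21, adjusted p = 0.0166). Of 31 monocyte and macrophage genes, Spic, the transcription factor of iron-recycling macrophages, was the 1 that passed, with 1.33, 0.683 and 2.36 in Sham and 9.63, 5.93 and 10.9 in P (2.02 ± 0.32, adjusted p = 0.0295). Trem2 and Cx3cr1, receptors of tissue macrophages, had negative fold changes of -1.52 ± 0.34 and -0.82 ± 0.19 that did not pass (adjusted p = 0.0802 and 0.088). None of 24 T and NK cell genes passed, with 2 at an unadjusted p under 0.05 and 0 by limma-voom on recovered reads. Without Sham 3 and P 2 together, 2436 of all 14430 genes were higher and 1140 lower. Of the T and NK cell genes, 8 were higher and 1 lower. In that fit 14 monocyte and macrophage genes were higher and 7 lower, and 8 mast cell, basophil and eosinophil genes were higher and 0 lower.

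Single genes of immune signalling also differed. Cxcr4 (ENSRNOG00000003866), the receptor that holds blood precursors in the marrow, had 14.6, 19 and 18.2 in Sham, 75.7, 60.7 and 72.8 in P and 138, 137 and 158 in OVX. Both steps were larger than the spread, and the difference between P and Sham was 1.95 ± 0.16 (adjusted p = 0.00676). Il1r1, the signalling receptor of interleukin 1, went the other way, with 37.7, 38.6 and 33.0 in Sham, 15.7, 20.9 and 16.9 in P and 2.02, 3.39 and 5.92 in OVX (-1.0 ± 0.15, adjusted p = 0.0242). These were the 2 calls among 33 genes of inflammatory signalling, against 3.26% of all genes called in either direction. Without Sham 3 and P 2 together, 11 of the 33 were higher and 3 lower. Of all 14430 genes, 2436 were higher and 1140 lower in that fit. The interferon-induced antiviral enzyme Rsad2 had 3.13, 1.68 and 5.61 in Sham and 21.6, 25.9 and 25.9 in P (2.60 ± 0.33, adjusted p = 0.014). It was the single call among 29 interferon genes, near the 2.95% of all genes called higher, and their median was 0.49. Without Sham 3 and P 2 together, 19 of the 29 were higher and 0 lower. Cxcl10, a chemokine of the same response, had 1.30, 1.75 and 2.60 in Sham and 7.37, 4.18 and 6.39 in P and did not pass (1.27 ± 0.26, adjusted p = 0.0611). Among 29 targets of the aryl hydrocarbon receptor and NRF2, the 1 call was Gclm, a subunit of the enzyme that limits glutathione synthesis. This too was near the 2.95% of all genes. Gclm passed narrowly, with 11.5, 11.5 and 14.6 in Sham and 21.0, 29.2 and 23.5 in P (0.91 ± 0.17, adjusted p = 0.0493, limma). It did not pass by limma-voom or without P 1, P 3 or any 1 Sham library.

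No gene of bone itself passed. Bglap, the osteocalcin of osteoblasts, had 34.0, 6.43 and 882 in Sham and 3620, 69.6 and 1047 in P. Sham 3, P 1 and P 3 were high and Sham 1, Sham 2 and P 2 low, so the groups overlapped and the fold change of 3.40 ± 2.10 had an adjusted p of 0.423. Col1a1, the main collagen chain of bone, had 179.7, 118 and 448 in Sham and 1763, 98.6 and 944 in P (1.37 ± 1.11, adjusted p = 0.544). Spp1, osteopontin, had 289.9, 121 and 3511 in Sham and 3042, 879 and 2427 in P (1.90 ± 1.26, adjusted p = 0.453). The osteoblast transcription factors Runx2 and Sp7 had fold changes of 0.62 ± 0.59 and 1.26 ± 0.77, with adjusted p of 0.608 and 0.417. Ibsp, a sialoprotein of mineralising matrix, had 70.6, 55.0 and 376 in Sham and 592, 195 and 724 in P (1.93 ± 0.84, adjusted p = 0.27). Sost and the matrix phosphoprotein Dmp1, both of osteocytes, had 1.86 ± 2.63 and 1.5 ± 1.46, with standard errors as large as the differences or nearly so.

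Of 29 osteoblast and bone matrix genes none passed by limma, 1 had an unadjusted p under 0.05, and limma-voom gave 0. For 19 osteocyte genes these counts were 0, 4 and 0. Among all 14430 genes tested, 2919 had an unadjusted p under 0.05. Medians of the osteoblast and osteocyte lists were 0.44 and 0.48. Without Sham 3 and P 2 together, 19 osteoblast genes were higher and none lower, and 10 osteocyte genes were higher and 5 lower. Of all 14430 genes, 2436 were higher and 1140 lower in that fit. That choice of libraries was made after their bone gene levels were seen, and the mean levels of the osteocyte list were 3.51, 3.37 and 5.11 in Sham 1 to Sham 3 and 4.18, 3.42 and 4.89 in P 1 to P 3. Against OVX, 20 of 28 osteoblast genes were higher in P (median 2.15), against 19.9% of all genes.

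**Figure D4:**
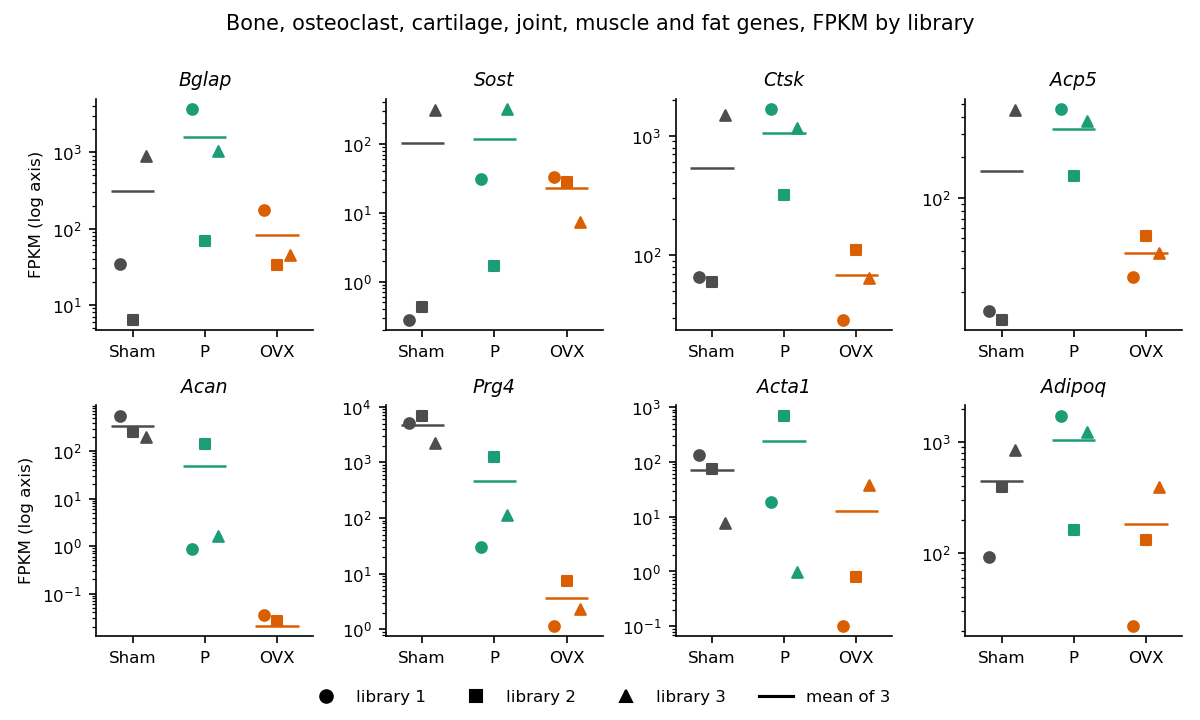
FPKM on a log axis of 8 genes of bone, osteoclasts, cartilage, joint surface, muscle and fat in the 3 libraries (circle, square and triangle for libraries 1, 2 and 3) of Sham, P and OVX, with a bar at the mean. A listed 0 has no point on this axis (Acan in OVX 3). P 2 (square) lies apart from P 1 and P 3 in most panels: for Acan it had 141 against 0.867 and 1.60.

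Osteoclast genes divided the libraries in the same way. Ctsk, the collagen-degrading protease cathepsin K, had 65.8, 60.3 and 1494 in Sham and 1669, 322 and 1166 in P (2.23 ± 1.35, adjusted p = 0.413). Acp5, the acid phosphatase TRAP, had 14.5, 12.4 and 449 in Sham and 454, 146 and 371 in P (2.69 ± 1.39, adjusted p = 0.342). In both, Sham 3 lay with P 1 and P 3, P 2 lay between, and Sham 1 and Sham 2 were lowest. Car2, a carbonic anhydrase of osteoclasts that red cell precursors also make, had 8.26, 5.79 and 51.2 in Sham and 144, 271 and 141 in P, without overlap, and had the smallest p of the list (3.58 ± 0.78, adjusted p = 0.0733). Of 31 osteoclast genes none passed by limma and limma-voom gave 0, with a median of 0.84. An unadjusted p under 0.05 was found for 3 of them, against 2919 of all 14430 genes. Without Sham 3 alone 7 osteoclast genes were higher, and without Sham 3 and P 2 together 26 were. Those fits called 402 and 2436 of all 14430 genes higher. Sham 3 was the highest Sham library and P 2 the lowest P library for Ctsk and Acp5. The joint removal was chosen after bone gene levels were seen, so its count is not a further test. Osteoclasts form when RANKL meets its receptor RANK, and osteoprotegerin blocks that step. The genes of these 3 proteins did not pass: Tnfsf11 (RANKL) had 2.46, 1.61 and 9.84 in Sham and 9.61, 2.37 and 8.31 in P (0.59 ± 0.66, adjusted p = 0.671). Tnfrsf11a (RANK) had 2.31, 3.61 and 10.3 in Sham and 9.91, 6.04 and 10.3 in P (0.78 ± 0.47, adjusted p = 0.414). Tnfrsf11b (osteoprotegerin) had 204, 59.3 and 77.3 in Sham and 11.5, 114 and 12.8 in P (-1.87 ± 0.94, adjusted p = 0.333), with P 2 within the Sham range and P 1 and P 3 far below it.

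Cartilage and joint genes had the largest negative differences of any list and 1 call, and P 2 stood apart from P 1 and P 3. Col2a1, the collagen of cartilage, had 264, 217 and 173 in Sham and 0.295, 102 and 1.08 in P. P 1 and P 3 were low, near the OVX levels of 0.27, 0.0345 and 0.0205, P 2 was not, and the fold change of -5.05 ± 1.61 had an adjusted p of 0.16. Acan had -5.13 ± 1.64 (adjusted p = 0.161). Prg4, the lubricin of joint surfaces, had 5180, 6926 and 2207 in Sham, 29.7, 1246 and 115 in P and 1.15, 7.36 and 2.36 in OVX. All 3 P libraries were below all Sham libraries, but the difference of -4.71 ± 1.32 did not pass (adjusted p = 0.127). P 2 was again the P library nearest to Sham. Cilp, a matrix protein of the middle cartilage layer, had 1340, 503 and 666 in Sham and 26.6, 509 and 24.1 in P (-3.44 ± 1.19, adjusted p = 0.188). Chst3, a sulfotransferase that modifies chondroitin, was the 1 of 25 cartilage genes to pass, with 13.2, 11.7 and 13.8 in Sham and 4.00, 6.45 and 5.71 in P (-1.14 ± 0.19, adjusted p = 0.0311). Of the 25, 23 had negative fold changes and 12 had every P library below every Sham library, against 10.9% of all genes. The median was -2.81, and without P 2, 17 were lower. Of all 14430 genes, 584 were lower in that fit and 44 in the fit of all 6 libraries. None of 15 joint surface and tendon genes passed (median -1.90), and 7 were lower without P 2. In OVX 23 of 24 cartilage genes were lower than in Sham (median -5.03).

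The 44 genes lower in P belonged to no single list. Ddit4 (ENSRNOG00000057078), an inhibitor of mTOR signalling that stress and glucocorticoids induce, had 226, 172 and 144 in Sham, 37.8, 62.3 and 50.3 in P and 12.2, 13.0 and 25.3 in OVX. Each P library was below each Sham library and above each OVX library, with a fold change from sham of -1.83 ± 0.25 (adjusted p = 0.0184). Smo, the transducer of hedgehog signals, had 32.1, 24.1 and 35.4 in Sham, 10.2, 13.9 and 13.3 in P and 1.57, 1.91 and 2.5 in OVX (-1.22 ± 0.20, adjusted p = 0.0289). In both genes P lay between Sham and OVX, without overlap on either side. The growth factor gene Fgf2 had 6.79, 4.97 and 5.43 in Sham and 0.531, 2.07 and 0.848 in P (-1.70 ± 0.29, adjusted p = 0.0364). Scd2, a fatty acid desaturase, had 91.7, 75.1 and 83.0 in Sham and 25.7, 35.3 and 39.7 in P (-1.30 ± 0.19, adjusted p = 0.0225). Eno2, an enolase of glycolysis, had 40.3, 25.1 and 29.4 in Sham and 10.9, 16.3 and 10.9 in P (-1.24 ± 0.24, adjusted p = 0.0494). Dcbld2, a membrane protein of vessel wall cells, had 15.8, 11.7 and 10.4 in Sham and 4.47, 5.61 and 4.66 in P (-1.19 ± 0.19, adjusted p = 0.0272).

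**Figure D5:**
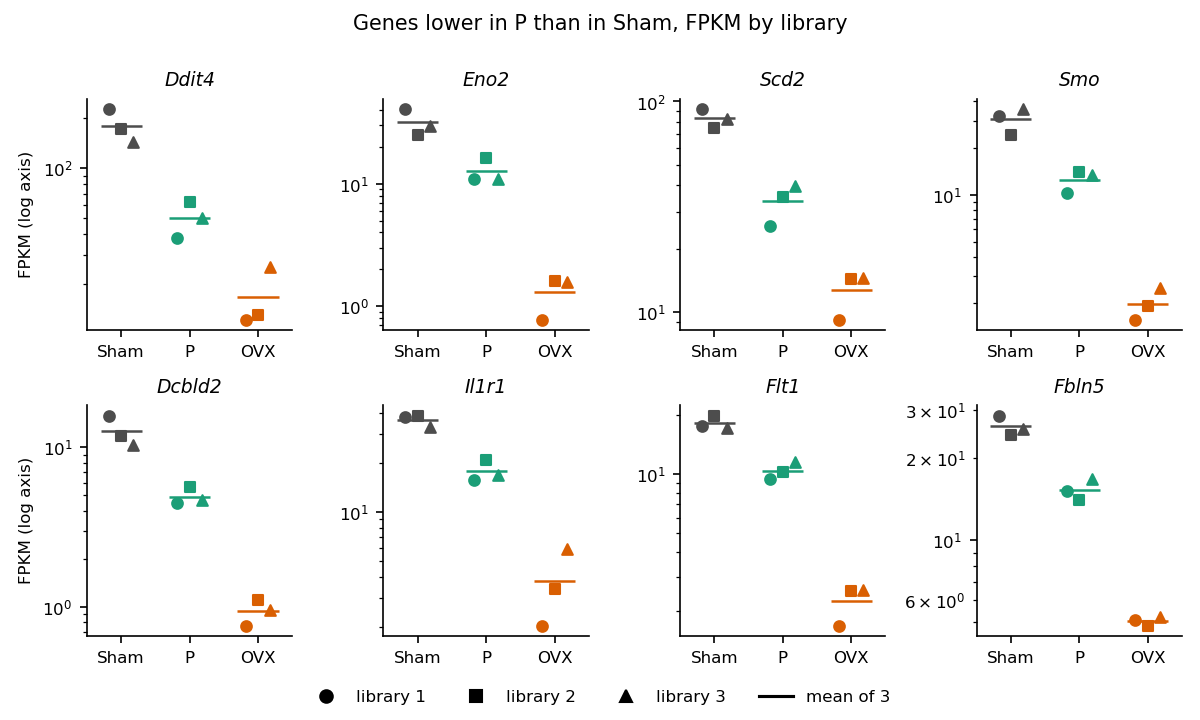
FPKM on a log axis of 8 genes lower in P than in Sham in the 3 libraries (circle, square and triangle for libraries 1, 2 and 3) of Sham, P and OVX, with a bar at the mean. The P libraries lie below all Sham libraries and above all OVX libraries in each panel, as in Flt1 with 17.5, 19.9 and 17.1 in Sham, 9.43, 10.3 and 11.6 in P and 1.68, 2.54 and 2.57 in OVX.

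Among the named genes called lower in P, the largest negative fold changes were mostly of genes with low values, Ddit4 being an exception. Chadl, a collagen-binding protein of cartilage, had 4.72, 7.70 and 7.10 in Sham and 0.0664, 1.41 and 0.444 in P (-2.25 ± 0.34, adjusted p = 0.0244). Ctxn3 (-1.99 ± 0.33), Armh4 (-1.81 ± 0.27) and Tm4sf4 (-1.70 ± 0.32), membrane proteins, were at or under 0.934 in every P library and at or above 2.73 in every Sham library. The gene entry Mir3072 had 8.96, 9.09 and 4.72 in Sham and 0, 0.813 and 0.521 in P (-2.57 ± 0.33, adjusted p = 0.0148), and in polyadenylated RNA this value does not measure the mature miRNA. Single members passed of the interstitial matrix, endothelial, immediate early, and BMP and TGF-beta lists. Fbln5, an elastic fibre protein, had 28.7, 24.3 and 25.6 in Sham, 15.1, 14.1 and 16.7 in P and 5.08, 4.84 and 5.21 in OVX (-0.74 ± 0.13, adjusted p = 0.0392). It was the 1 of 42 matrix genes to pass, against 0.305% of all genes called lower. Of the 42, 10 were lower without overlap, against 10.9% of all genes, and the median was -0.64. Col6a3, a collagen of loose matrix, had 61.8, 44.6 and 52.5 in Sham and 26.7, 27.1 and 36.1 in P and did not pass (-0.80 ± 0.19, adjusted p = 0.0859). Flt1, a receptor of VEGF, was the 1 of 26 endothelial genes to pass (-0.75 ± 0.13, adjusted p = 0.0419), although 24 had negative fold changes (median -0.60) and 9 were lower without overlap, against the same 10.9%. Against OVX, 36 of 42 matrix genes and 21 of 26 endothelial genes were higher in P, with medians of 2.37 and 1.65. Of all genes, 19.9% were higher in that comparison.

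Signalling pathways of bone formation and of estrogen gave few calls. Among all 14430 genes tested, 2919 had an unadjusted p under 0.05. Wnt proteins drive osteoblast formation through LRP co-receptors. None of 40 Wnt pathway genes passed by limma, 10 had an unadjusted p under 0.05 and limma-voom gave 0 (median -0.01). Frzb, a secreted Wnt inhibitor of cartilage, had 118, 83.5 and 74.4 in Sham and 0.975, 42.6 and 2.20 in P (-3.81 ± 1.12, adjusted p = 0.139), and the R-spondin receptor gene Lgr6 had 18.0, 8.88 and 8.60 in Sham and 0.835, 4.97 and 1.09 in P (-2.10 ± 0.52, adjusted p = 0.0959). Of 49 BMP and TGF-beta genes 1 was called, lower in P, against 0.305% of all genes. Smad3, which carries the TGF-beta signal to the nucleus, had -0.77 ± 0.17 (adjusted p = 0.0802, limma). Esr1, the estrogen receptor alpha gene, had 0.257, 0.40 and 2.00 in Sham and 1.32, 0.727 and 2.04 in P, levels at or under 2.04, with overlapping groups (0.4 ± 0.4, adjusted p = 0.63). None of 23 estrogen receptor and responsive genes passed by limma, 4 had an unadjusted p under 0.05 and limma-voom gave 0 (median -0.08). Cdkn1a, the cell cycle inhibitor p21, had 28.8, 35.5 and 18.8 in Sham and 11.5, 11.2 and 11.6 in P, without overlap, and missed the threshold (-1.17 ± 0.23, adjusted p = 0.0568).

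Fat cell genes did not pass either and showed the same division of the P libraries. Adipoq, the hormone adiponectin, had 92.4, 393 and 852 in Sham and 1730, 162 and 1223 in P (1.15 ± 1.14, adjusted p = 0.621). Lep, leptin, had 0.962, 2.80 and 2.36 in Sham and 18.1, 0.836 and 17.9 in P (1.57 ± 0.93, adjusted p = 0.403), and Pparg, the transcription factor of fat cell formation, 8.07, 18.5 and 26.3 in Sham and 31.5, 11.2 and 37.5 in P (0.55 ± 0.57, adjusted p = 0.637). P 1 and P 3 were above all Sham libraries for each of these 3 genes, and P 2 was within or below the Sham range. Of 28 fat cell genes, 27 had positive fold changes (median 0.74), none passed by limma or limma-voom and none had an unadjusted p under 0.05. Without P 2, 4 were higher, and without Sham 3 and P 2 together 9 were. Those fits called 1058 and 2436 of all 14430 genes higher. The joint removal was chosen after the data were seen. In mean level of this list Sham 3 was the highest Sham library and P 2 the lowest P library.

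The other lists held 0 calls, or 1 that is given above. An unadjusted p under 0.05 was found for 2919 of all 14430 genes. Smooth muscle and pericyte genes had negative fold changes in all 15 tested (median -1.14, 5 at an unadjusted p under 0.05), and immediate early and stress genes in 30 of 34 (median -0.66), with Ddit4 the 1 that passed. The skeletal muscle list had a median of 0.19 and no unadjusted p under 0.05, with mean levels of 3.07, 2.63 and 1.12 in Sham and 1.83, 5.01 and 0.79 in P, highest in P 2. Nuclear genes of oxidative phosphorylation were slightly above 0 in 36 of 37 (median 0.29, 6 at an unadjusted p under 0.05), and the 13 mitochondrially encoded genes had a median of 0.06. Medians were 0.47 for MHC class II, 0.24 for marrow stroma, 0.20 for cholesterol and fatty acid synthesis and 0.11 for apoptosis. They were 0.10 for RANKL and cytokines that promote osteoclasts, -0.17 for autophagy, -0.27 for the IGF axis, -0.14 for phosphate and vitamin D handling and -0.22 for nerve. None of the lists without a call by limma had one by limma-voom.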

How the data were processed

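Polyadenylated RNA of rat femurs was sequenced. The submitters' processing notes list the build mRatBN7.2 together with featureCounts 2.0.6, STAR 2.7.11a and fastp 0.23.4, without their roles. Per the labels' protocols, RNA came from TRIzol and libraries from a TruSeq kit, and no source used here gives strand. The deposited column named as a count holds FPKM for 30454 genes, as its values show, while a second column, FPKM by its header, is blank in each of the 15 files. Gene names came from the files, which leave 4319 genes unnamed.

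Genes whose FPKM averaged 1 or more over the 6 libraries of a comparison were tested with limma 3.58.1 in R 4.3.3 on log2(FPKM + 1), with variances moderated along a trend in mean level, 4 residual degrees of freedom, two-sided tests, Benjamini-Hochberg adjustment over all genes and a threshold of 0.05. SE is that of the fit. The fit was tested on simulated data with noise drawn separately for each gene, which leaves out the tissue makeup that genes of a library share. Groups that do not overlap are those in which every P library lies on 1 side of every Sham library. Read ends were recovered from the steps of the FPKM values for 24182 of 24207 genes above 0, and limma-voom was run on them. Depth limits low genes: 3 reads correspond to 0.0578 to 0.0873 RPM, for counting error only. Named genes were the 12 highest and 12 lowest called with a symbol and without overlap, up to 4 of smallest p per list and 20 fixed by name. The 36 lists hold 1029 genes, of which 984 matched a name in the files. Members, lists and rules were chosen with earlier results of these data known. Promoters were compared with Biopython 1.88. A few genes that the rule names are not reported here.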

Additional observations from a re-analysis of the deposited data

How the results depend on the processing

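The 470 calls of P against Sham became 271 with a mean FPKM of at least 5, 1127 with all 15 libraries in 1 fit, 4918 with array weights, 3576 without Sham 3 and P 2 together and 2 to 1642 when 1 library was left out (2 without P 1, 1642 without P 2). The replicate number as a block left 7 calls, all higher. By the labels the numbers pair no samples (deviations of same-numbered libraries correlated at -0.42, -0.05 and 0.49, and neither Sham 1 nor Sham 2 correlated best with its own number). A pseudocount of 0.1 gave 432, no filter 349, TPM 353, median-ratio scaling 446, limma-voom on recovered reads 405 and leaving out mitochondrial and globin genes 499. The last alternative and the joint removal of Sham 3 and P 2 were added after the data were seen. Every one of the 470 genes kept its sign under each alternative in which it was tested, and 7 (block) to 470 (array weights, and without P 2) still passed, or 2 without P 1. In P against OVX, 4811 calls became 7276 with array weights and 2727 (without OVX 1) to 6742 (without P 2) when 1 library was left out. Median-ratio scaling moved the median of all genes from 0.10 to -0.05 there and the split from 2830 higher and 1981 lower to 2470 and 2918. OVX against Sham stayed within 1.5 times its 8193 calls under all alternatives run. The cause of these changes was not tested. Of 64 called genes named in the text, 329 of 1078 alternative values no longer passed, and of 38 uncalled ones 104 of 640 did; none changed sign. With 3 libraries a group and P 2 unlike P 1 and P 3, a gene that did not pass is not shown to be equal to sham.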

Other observations

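Called genes outside the lists, chosen after their values were seen, included the following. Mybl2, which works in mitotic transcription, had 0.777, 0.629 and 1.48 in Sham and 12.6, 13.6 and 11.0 in P, with a log2 fold change of 2.79 ± 0.21 (adjusted p = 0.00623, limma). Myb, needed by blood precursors, had 0.912, 0.667 and 3.22 in Sham and 25.8, 8.76 and 15.4 in P (2.77 ± 0.49, adjusted p = 0.0392). E2f2 and E2f8 had 2.65 ± 0.24 and 2.22 ± 0.20, and Gfi1b, of red cell and platelet precursors, had 2.97 ± 0.48. The outer kinetochore genes Spc24, Spc25, Ndc80 and Nuf2 had fold changes of 2.23, 2.75, 2.07 and 2.21, and all passed. Ifitm6, a membrane protein of the interferon-induced family, had 4.60, 2.66 and 4.60 in Sham and 52.4, 39.99 and 69.3 in P (3.46 ± 0.26, adjusted p = 0.00623).

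Chosen in the same way among the genes lower in P were Crtap, part of the complex that hydroxylates collagen, with 66.6, 63.9 and 60.1 in Sham, 37.2, 39.8 and 36.9 in P and 8.47, 9.71 and 11.0 in OVX (-0.73 ± 0.12, adjusted p = 0.0298), and Ptn, the growth factor pleiotrophin, with 20.1, 23.2 and 24.0 in Sham and 9.63, 12.8 and 12.0 in P (-0.91 ± 0.15, adjusted p = 0.033). Calcrl, a receptor for CGRP and adrenomedullin, had 16.0, 20.4 and 18.6 in Sham and 9.47, 9.53 and 10.5 in P (-0.83 ± 0.14, adjusted p = 0.0322), and Klf9, a glucocorticoid-induced factor, 45.6, 37.9 and 45.5 in Sham and 20.2, 22.1 and 27.6 in P (-0.86 ± 0.16, adjusted p = 0.0488). The ribosomal protein gene Rpl39 had 56.2, 54.2 and 62.2 in Sham, 30.8, 26.1 and 26.9 in P and 23.7, 33.0 and 13.5 in OVX, and P and OVX overlapped (-1.02 ± 0.13, adjusted p = 0.0148). Rpl39 has many near-identical copies in the genome, so its value is uncertain.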
